A study of Homo sapiens with 6 samples.

Results

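The genes described here are the SR and HNRNP families of splicing factors with 6 further splicing regulators, measured by RNA sequencing in the ovarian cancer cell line OVCAR5. Members were chosen by symbol. They are the protein-coding genes named SRSF with a number (12 genes), the protein-coding genes whose symbol starts with HNRNP (21 genes), and TRA2A, TRA2B, PTBP1, RBFOX2, ESRP1 and ESRP2 (6 genes). HNRNPA2B1, HNRNPC, the HNRNPCL genes and pseudogenes were left out of the set. This gave 39 members among 60649 gene rows, and 37 of them passed edgeR's filter on low counts.

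OVCAR5 cells were made to overexpress METTL3, the catalytic subunit of the m6A RNA methyltransferase, by lentiviral transduction and puromycin selection, and control cells were selected in parallel after transduction with the empty vector. Each group holds 3 libraries with replicate numbers 1 to 3, all without a named drug treatment. The labels also call the control cells parental, and they do not say whether the stable lines are clones or pools or whether the numbers are separate cultures, so p-values measure the spread between these libraries only. Total counts ranged from 96633925 to 125463386 per library.

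The level of METTL3 itself, in CPM (counts scaled to the TMM-adjusted library size), was 152, 165 and 175 with METTL3 overexpression in replicates 1, 2 and 3. In the vector control replicates it was 80.6, 68.6 and 71.6 CPM. The groups did not overlap, and the log2 fold change was 1.16 (SE 0.117, adjusted p = 0.072 in edgeR's quasi-likelihood test). Without vector replicate 1 it was 1.23, with an adjusted p of 0.00708, and in replicates 2 and 3 alone it was 1.28 (SE 0.0559, adjusted p = 1.59e-08). The epithelial label was met, with EPCAM between 247 and 483 CPM and KRT8 between 3131 and 5153 CPM. The leukocyte gene PTPRC stayed at or below 0.0708 CPM. Among ovarian lineage markers PAX8 was between 6.38 and 11.6 CPM, whereas WT1 did not exceed 0.204 CPM and SOX17 did not exceed 0.0105 CPM.

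SR proteins carry RNA-binding domains and a tail rich in arginine and serine, bind exonic enhancers and help recruit the spliceosome. HNRNP proteins coat nascent transcripts, and several of them oppose SR proteins at exons. PTBP1 represses exons next to pyrimidine-rich tracts, RBFOX2 activates or represses exons by the position of its binding site, and ESRP1 and ESRP2 drive the splicing pattern of epithelial cells. Many SR and HNRNP genes limit their own level through poison exons, whose inclusion sends the transcript to nonsense-mediated decay. In the nucleus the m6A reader YTHDC1 is known to interact with SRSF3 and SRSF10. Counts per gene do not separate isoforms, so nothing below measures splicing itself.

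The sequences shown first belong to ESRP2, the member that differed most between the groups. METTL3 methylates adenosines in a short consensus of which GGACT is a common form in DNA letters. The canonical ESRP2 transcript of GENCODE release 44 holds 7 GGACT matches, 4 in the coding sequence and 3 in the 3′ untranslated region. The 4 coding matches are given with 8 bases on either side, from the minus strand of GRCh38 and with the match in capitals. The window of site 1 joins 2 exons, and sites 2, 3 and 4 lie at chr16:68232029-68232049, chr16:68231600-68231620 and chr16:68231590-68231610.
ESRP2 GGACT site 1: agggtttaGGACTggagacag
ESRP2 GGACT site 2: ggctgcggGGACTgcccttct
ESRP2 GGACT site 3: ggcacctgGGACTgggaggga
ESRP2 GGACT site 4: actgggagGGACTgtgtacgc

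This is 2.04 matches per kb in ESRP2, a density that 11% of 21986 tested genes reach or exceed. ESRP1 holds 1.86 per kb and RBFOX2 0.832 per kb. High densities were not confined to members with higher levels under METTL3 overexpression. SRSF9 (2.6 per kb) and SRSF7 (2.12 per kb) exceed ESRP2, and HNRNPA1 holds 1.87 per kb. On all 6 libraries the log2 fold changes of SRSF9, SRSF7 and HNRNPA1 over the vector control were -0.18, -0.19 and -0.38, none of them called. In replicates 2 and 3 they were -0.16, 0.04 and -0.11, again not called by edgeR, so the sign for SRSF7 rests on replicate 1. A relation between match density and fold change was not tested. Over the tested members the median was 0.758 per kb, below the median of 0.914 per kb over all tested genes. A match is a description of the letters and not a measured m6A site, since methylation was not part of these libraries.

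Promoter windows of 250 bases before the RefSeq start (GRCh38.p14, first listed start per gene) were matched for 32 of the 39 members. No window was matched for TRA2A, ESRP1, SRSF2, RBFOX2, HNRNPA1L3, HNRNPA1 or ESRP2. The windows of SRSF3, SRSF4 and HNRNPA0 are shown because these members behaved unlike one another in the comparison of replicate numbers given further on. They lie at chr6:36594112-36594361 on the plus strand, chr1:29181901-29182150 on the minus strand and chr5:137754364-137754613 on the minus strand. Capitals mark the CCAAT box, the GC box GGGCGG, the ETS motif CCGGAA and the TATA box TATAAA, each searched on both strands, so that a match on the other strand appears as its reverse complement.
SRSF3 promoter: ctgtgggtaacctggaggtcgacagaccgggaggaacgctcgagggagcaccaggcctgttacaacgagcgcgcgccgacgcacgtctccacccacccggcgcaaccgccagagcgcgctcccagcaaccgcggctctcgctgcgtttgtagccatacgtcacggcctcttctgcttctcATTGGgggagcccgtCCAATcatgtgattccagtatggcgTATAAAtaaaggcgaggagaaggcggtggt
SRSF4 promoter: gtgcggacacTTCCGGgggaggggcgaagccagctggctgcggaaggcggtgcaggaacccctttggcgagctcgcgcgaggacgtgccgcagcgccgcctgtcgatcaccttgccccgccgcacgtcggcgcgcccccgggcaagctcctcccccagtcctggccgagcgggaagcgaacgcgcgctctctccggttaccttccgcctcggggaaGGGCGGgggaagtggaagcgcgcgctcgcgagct
HNRNPA0 promoter: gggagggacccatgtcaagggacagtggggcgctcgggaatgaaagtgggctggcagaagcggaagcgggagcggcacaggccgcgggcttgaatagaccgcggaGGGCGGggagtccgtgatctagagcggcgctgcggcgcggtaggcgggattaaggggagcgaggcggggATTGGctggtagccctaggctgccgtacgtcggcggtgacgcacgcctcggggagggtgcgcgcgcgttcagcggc

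SRSF3 holds 2 CCAAT boxes and 1 TATA box, SRSF4 holds 1 GC box and 1 ETS motif, and HNRNPA0 holds 1 CCAAT box and 1 GC box. Of the 32 member windows, 15 hold CCAAT (46.9%, against 33% of 27305 promoters) and 22 hold GGGCGG (68.8%, against 42.3%). CCGGAA was present in 7 windows (21.9%, against 14.8%) and TATAAA in 4 (12.5%, against 11.1%). In these 3 windows the matches do not overlap.

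The members were among the abundant messages of OVCAR5. Together they took between 1.03% and 1.21% of all counts in a library. Scaled to the length of the longest annotated transcript, the highest levels were those of HNRNPA1 (289 CPM per kb), HNRNPK (255 CPM per kb) and HNRNPAB (224 CPM per kb). The lowest among tested members were SRSF12 (0.0675 CPM per kb), HNRNPA1L3 (7.39 CPM per kb) and HNRNPUL2 (10.8 CPM per kb). SRSF12, an SR protein that represses splicing, had only 17 to 35 counts in a library, and its fold changes carry little information. HNRNPA1L2, a copy of HNRNPA1, and HNRNPUL2-BSCL2, a readthrough locus, had 0 counts in every library, which allows at most 0.0239 to 0.031 CPM for 3 counts. All of the annotated exonic bases of both are shared with other genes (100%), so reads there may have been assigned elsewhere or to no gene. Over the 36 members at 10 CPM or more the median coefficient of variation was 10.3%, against 13.2% over the 10031 genes at 10 CPM or more. Levels above that bound were not matched between the members and those genes. Vector replicate 1 lay above the 5 other libraries for 19 of the 37 tested members, against 30.1% of all tested genes. It lay below them for 5 members, against 24.7%.

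**Figure D1:**
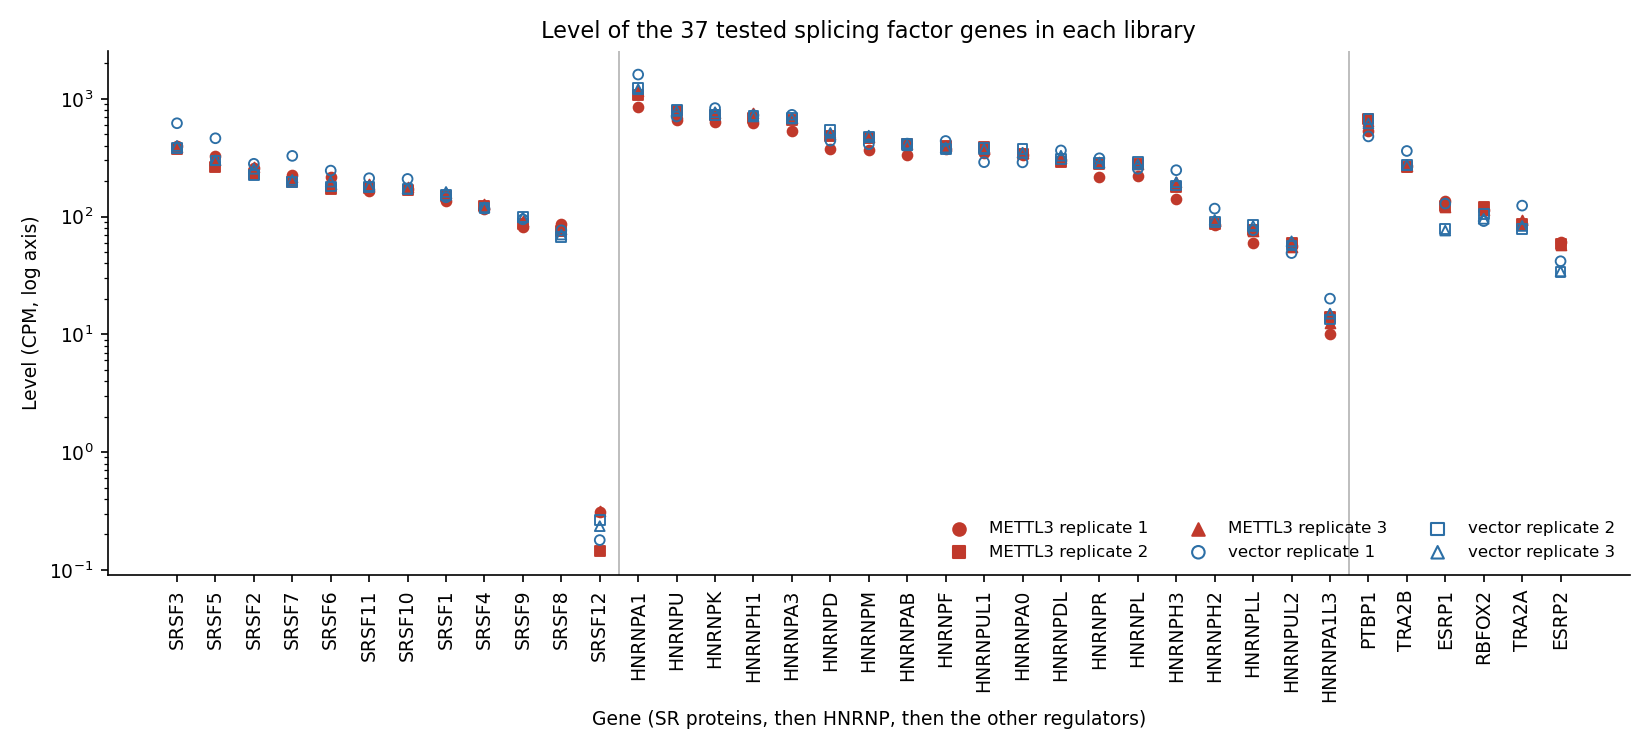
Level of each tested member in each of the 6 libraries, in CPM on a log axis, with filled red symbols for METTL3 overexpression, open blue symbols for the vector control and 1 symbol shape per replicate number. Most genes form tight clusters, with vector control replicate 1 (open circle) above the other libraries for SRSF3, SRSF5, SRSF7 and HNRNPA1.

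The comparison of METTL3 overexpression with the vector control on all 6 libraries asked whether raised METTL3 was accompanied by other levels of splicing factors. ESRP2 was 1.61-fold higher and ESRP1 1.33-fold higher, and edgeR called neither of them nor any gene of the SR and HNRNP families. None of the 37 members passed an adjusted p of 0.05 in edgeR's quasi-likelihood test (0% of all 22038 tested genes were called). At an unadjusted p under 0.05, 2 members were higher (ESRP2 and RBFOX2) and 0 were lower, against 8.3% of all tested genes in either direction (4.4% higher and 3.91% lower). DESeq2 called 1 member, ESRP2 (adjusted p = 1.26e-04), among 1.27% of all genes (0.876% higher). The median log2 fold change was -0.098 over 12 SR genes, -0.132 over 19 HNRNP genes and 0.151 over the 6 other regulators, beside -0.018 over all tested genes. The SR median was 0.018 without vector replicate 1, and the HNRNP median was 0.002 without METTL3 replicate 1, so each of these rests on 1 library.

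ESRP2 acts with its paralog ESRP1 on exons such as the epithelial exon of FGFR2. ESRP2 (ENSG00000103067.14, chr16:68229033-68238102, minus strand) stood at 61.1, 58.4 and 57.7 CPM with METTL3 overexpression, in the order of replicates 1, 2 and 3. The vector controls, in the same order, had 41.8, 34 and 34.3 CPM. All 3 METTL3-overexpressing libraries were above all 3 controls, with means of 59.1 ± 1.79 and 36.7 ± 4.41 CPM (SD, n = 3). On the log2 scale ESRP2 differed by 0.69 (SE 0.119, adjusted p = 0.303 in edgeR). A two-sided exact permutation test gave p = 0.1, the smallest that 3 libraries against 3 allow. Without vector replicate 1 the log2 fold change was 0.79 with an adjusted p of 0.0105. With any other single library left out it was 0.66 to 0.72, with adjusted p from 0.529 to 0.904 in edgeR.

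ESRP1 (ENSG00000104413.18) was at 136, 122 and 121 CPM with METTL3 overexpression. In the controls it was at 129, 78.8 and 76.1 CPM. The groups overlapped because vector replicate 1 lay among the METTL3-overexpressing libraries, while the other two controls lay far below. The log2 fold change was 0.42 (SE 0.203, adjusted p = 0.623), and the exact permutation test gave p = 0.3. It was 0.71 with an adjusted p of 0.0208 without vector replicate 1, where edgeR called 2 of the 37 members and 1.62% of all genes. With any other single library left out the log2 fold change was 0.31 to 0.47, with adjusted p from 0.711 to 0.904 in edgeR. Vector replicate 1 was seen to stand apart in these data, so p-values without it may be too small.

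RBFOX2 (ENSG00000100320.23, chr22:35738736-36028824, minus strand) was at 114, 120 and 113 CPM with METTL3 overexpression and at 91.6, 105 and 95.8 CPM in the controls. The groups did not overlap (exact permutation p = 0.1), and the log2 fold change was 0.24 (SE 0.107, adjusted p = 0.6 in edgeR). TRA2A and TRA2B are SR-like activators of exons rich in purines. TRA2A (ENSG00000164548.11, chr7:23504780-23532041, minus strand) was at 87.1, 86.1 and 93.5 CPM with METTL3 overexpression and at 124, 78.3 and 83.3 CPM in the controls. Vector replicate 1 was the highest library and the other two controls were the lowest. TRA2B (ENSG00000136527.18, chr3:185914558-185938103, minus strand) was at 270, 263 and 269 CPM with METTL3 overexpression and at 361, 274 and 275 CPM in the controls. Those groups did not overlap, but only vector replicate 1 stood far from the rest. PTBP1 (ENSG00000011304.22, chr19:797075-812327, plus strand) was at 537, 671 and 643 CPM with METTL3 overexpression. In the controls it was at 480, 679 and 619 CPM, so that replicate 1 was the lowest of its group on both sides. The log2 fold changes of TRA2A, TRA2B and PTBP1 were -0.10, -0.18 and 0.06 (SE 0.177, 0.138 and 0.162), and those of TRA2A and PTBP1 changed sign without vector replicate 1 or with the trend in GC content and length removed.

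**Figure D2:**
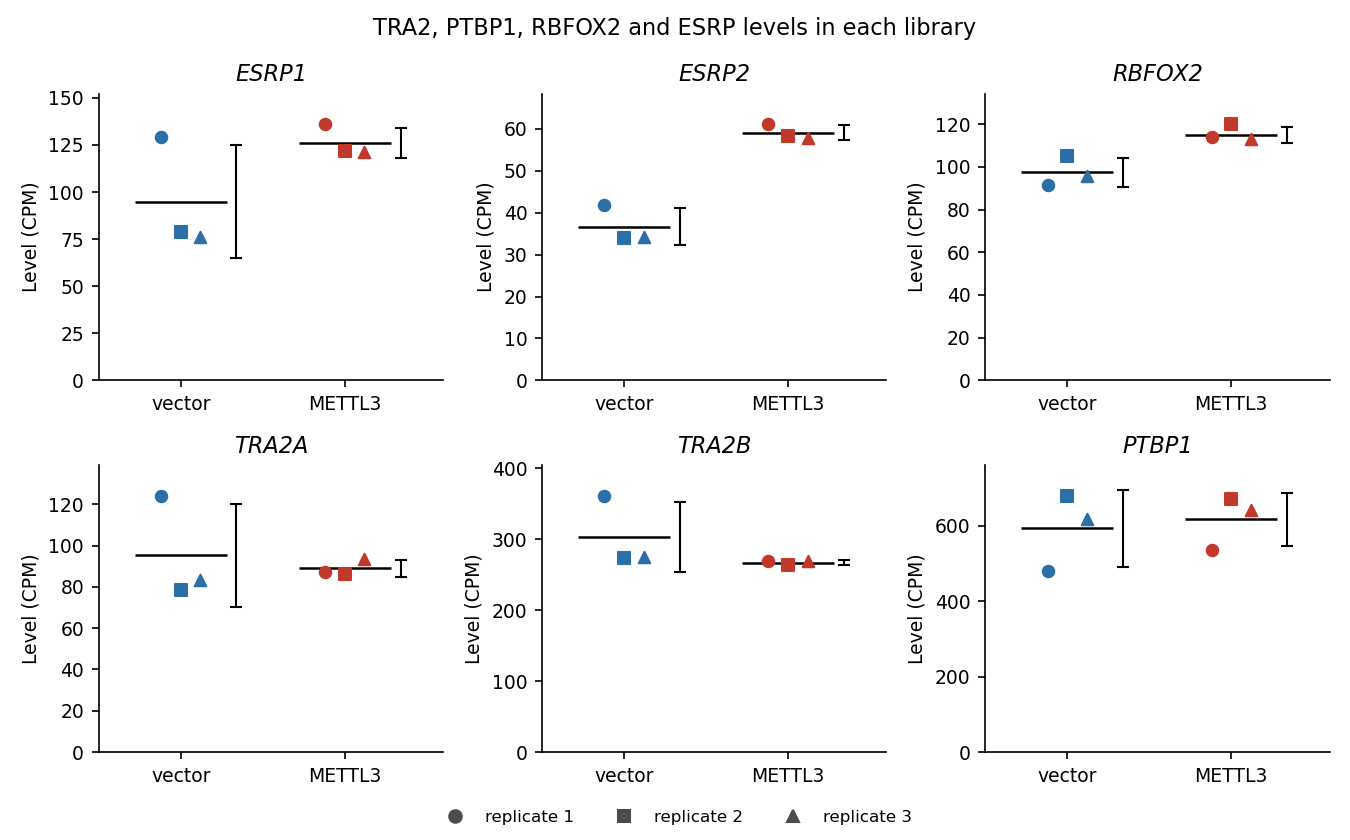
Level in CPM of ESRP1, ESRP2, RBFOX2, TRA2A, TRA2B and PTBP1 in each library by group, on axes that start at 0, with a line at the group mean and a bar for the SD (n = 3). ESRP2 and RBFOX2 are higher in every METTL3-overexpressing library than in any control. TRA2B also separates the groups, in the other direction, with only vector replicate 1 (circle) far from the rest. Vector replicate 1 sits beside the METTL3-overexpressing libraries for ESRP1 and above them for TRA2A and TRA2B.

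Across the 37 members, the libraries of the groups did not overlap for 2 higher members (ESRP2 and RBFOX2) and 3 lower ones (HNRNPA1, SRSF9 and TRA2B). The corresponding shares of all tested genes were 8.47% and 8.93%. METTL3 overexpression was above the control of the same number in all 3 numbers for 4 members (ESRP1, ESRP2, RBFOX2 and SRSF8) and below it for 13, against 19.6% and 20% of all tested genes. Apart from ESRP1, ESRP2, RBFOX2 and SRSF12, the fold changes of 33 members lay between -0.39 and 0.16 on the log2 scale, with SE between 0.102 and 0.199. HNRNPUL1, an RNA-binding relative of HNRNPU, was among the few HNRNP genes with a positive value (0.08, SE 0.142), which turned to -0.04 without vector replicate 1.

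Replicate 1 of each group stood apart from the other libraries in earlier results of these data, so replicates 2 and 3 were also compared on their own. That leaves 4 libraries, 2 per group. Their choice followed from the data, and the p-values do not allow for it and may be too small. In this comparison ESRP2, ESRP1 and RBFOX2 rose with METTL3 overexpression, by 1.7-fold, 1.57-fold and 1.16-fold. They were the 3 members called by edgeR, and 0 members were called lower, against 15.2% of all 22046 tested genes (6.66% higher and 8.59% lower). The log2 fold changes were 0.76 for ESRP2 (SE 0.0564, adjusted p = 6.93e-07), 0.65 for ESRP1 (SE 0.0525, adjusted p = 1.51e-06) and 0.21 for RBFOX2 (SE 0.0592, adjusted p = 0.0263). RBFOX2 was no longer called without METTL3 replicate 2 (adjusted p = 0.114) or without vector replicate 3 (adjusted p = 0.18). DESeq2 also called 3 members, all higher, among 14.7% of all genes (6.99% higher and 7.67% lower).

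None of the 12 SR genes and 19 HNRNP genes was called in replicates 2 and 3 by edgeR. At an unadjusted p under 0.05, SRSF8 was higher and SRSF9 and HNRNPLL were lower, against 27.1% of all genes, and DESeq2 called 0 genes of both families. The 33 members other than ESRP1, ESRP2, RBFOX2 and SRSF12 lay between -0.16 and 0.15 on the log2 scale, with SE between 0.0496 and 0.0888. The median was -0.006 over SR genes, -0.034 over HNRNP genes and -0.003 over all tested genes. Those medians turned to 0.036 and 0.002, with 0.023 over all genes, when each library's trend in GC content and length was removed. Over all 37 members 15 had a positive and 22 a negative fold change, and these counts became 24 and 13 with that correction.

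A fit with the replicate number as a block leaves little of these 4 libraries to measure the spread, so its calls are less certain. In it, 9 members were called (5 higher and 4 lower, against 24.7% of all genes, 11.3% higher and 13.4% lower). Besides ESRP1, ESRP2 and RBFOX2 these were TRA2A and SRSF8, higher at a log2 fold change of 0.15 each, and SRSF9, HNRNPLL, HNRNPA1 and HNRNPD, lower at -0.16, -0.15, -0.11 and -0.10. With the trend in GC content and length removed, 6 were called, 5 higher and 1 lower, against 21.3% of all genes (12.2% higher and 9.14% lower). These were ESRP1, ESRP2, RBFOX2, SRSF8 and TRA2A, all higher, and SRSF9, which was lower.

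SRSF8 is a retrotransposed gene related to SRSF2. It was at 86.3, 74.9 and 78 CPM with METTL3 overexpression and at 76.5, 67.1 and 70.4 CPM in the controls. Each METTL3-overexpressing library was above the control of its number, although the groups overlapped. SRSF9, a short SR protein, was at 80.9, 86.3 and 91.9 CPM with METTL3 overexpression and at 94.9, 100 and 98.7 CPM in the controls. All METTL3-overexpressing libraries were below all controls (exact permutation p = 0.1). Its log2 fold change in replicates 2 and 3 was -0.16 (SE 0.0543, adjusted p = 0.0668 in edgeR without the block). For SRSF9, 46.7% of the exonic bases overlap GATC or NRAV, and the counting of strand is not given in the sources used here, so its counts may hold reads of those genes.

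HNRNPLL, which drives the CD45 exon switch of lymphocytes, was at 59.6, 77.5 and 74.9 CPM with METTL3 overexpression and at 76.7, 85.1 and 83.2 CPM in the controls. Every METTL3-overexpressing library was below the control of its number, and the groups overlapped only through vector replicate 1. HNRNPD, also called AUF1, binds AU-rich elements. It was at 377, 487 and 503 CPM with METTL3 overexpression and at 442, 545 and 514 CPM in the controls, with the lowest library of each group in replicate 1.

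**Figure D3:**
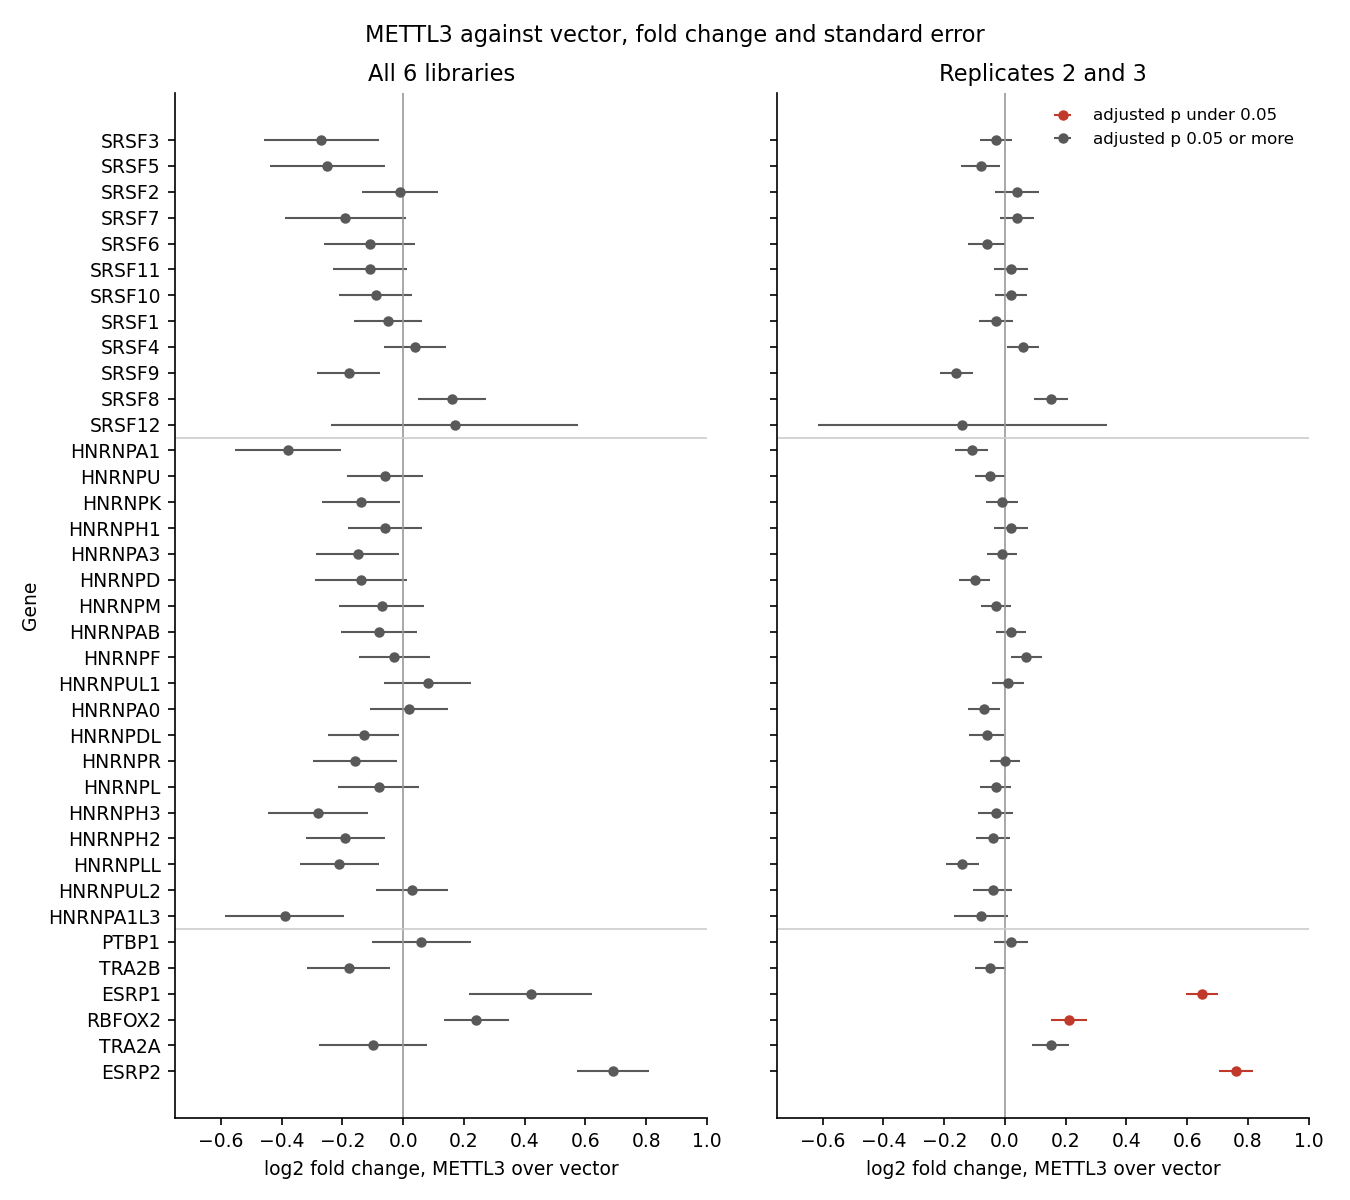
Log2 fold change of METTL3 overexpression over the vector control for the 37 tested members, with bars for the SE, on all 6 libraries (left) and in replicates 2 and 3 (right), with genes called by edgeR in red. In replicates 2 and 3 ESRP1, ESRP2 and RBFOX2 are called and the remaining genes other than SRSF12 lie between -0.16 and 0.15.

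ESRP1 and ESRP2 did not move alone. All 10 epithelial markers listed for comparison rose in replicates 2 and 3 (against 6.66% of all genes), with a median log2 fold change of 0.647. The gene lists and these 4 libraries were chosen with earlier results of these data known, so this count is a description and not independent support. On all 6 libraries 0 of the 10 epithelial and 0 of the 8 tested mesenchymal markers were called in edgeR (0% of all genes). At an unadjusted p under 0.05, 5 epithelial markers were higher (against 4.4% of all genes) and 0 mesenchymal markers passed (against 8.3% in either direction). DESeq2 called 1 epithelial marker higher (against 0.876% of all genes) and 0 mesenchymal markers (against 1.27% in either direction). CDH1, which encodes E-cadherin, was at 439, 358 and 346 CPM with METTL3 overexpression and at 201, 184 and 189 CPM in the controls. Its log2 fold change in replicates 2 and 3 was 0.91 (SE 0.0522, adjusted p = 7.46e-08). GRHL2, an epithelial transcription factor, rose by 0.81 (SE 0.0639, adjusted p = 1.16e-06) and EPCAM by 0.71 (SE 0.0577, adjusted p = 1.67e-06). Of the 8 mesenchymal markers, 4 fell in replicates 2 and 3, against 8.59% of all genes (VIM, SPARC, ZEB1 and SNAI1) and 1, CDH2, rose at levels of at most 0.347 CPM. VIM fell by 0.76, SPARC by 0.94 and ZEB1 by 0.48 on the log2 scale.

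The summed level of the epithelial list was 8200, 7345 and 7137 CPM with METTL3 overexpression and 9066, 5873 and 5764 CPM in the controls. As for ESRP1, vector replicate 1 was by far the highest control. The mesenchymal sum was 420, 584 and 533 CPM with METTL3 overexpression and 446, 833 and 825 CPM in the controls. In bulk RNA, fewer cells of one state and less RNA per cell cannot be told apart, and the part of these lists in the ESRP result was not tested. Markers of other cell types were not uniformly low. Of the leukocyte markers, LYZ was at 28.1 to 36.4 CPM with METTL3 overexpression and at 33.7 to 57 CPM in the controls, CD14 was at 7.02 to 11.4 CPM over all libraries, and PTPRC, CD3E and CD68 were at or below 0.0709 CPM. The sum of 6 endothelial and fibroblast markers was 27.9 to 39.6 CPM and 17.1 to 26.3 CPM, mostly PECAM1 and COL1A1. LYZ fell in replicates 2 and 3 by 0.92 on the log2 scale while CD14 was at 0.00, and PECAM1 rose by 0.69 while PDGFRB and CDH5 were at -0.47 and 0.70 and were not called. Of 3 tested ovarian markers MECOM rose by 0.53, and MUC16 and PAX8, at 0.99 and 0.18, were not called. The ovarian sum was 37.4 to 100 CPM with METTL3 overexpression and 24.5 to 49.2 CPM in the controls.

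Other genes of the splicing machinery were described in the same way. Of 40 core spliceosome genes in replicates 2 and 3, 2 rose and 1 fell (7.5%, against 15.2% of all genes), with 20 fold changes above and 20 below 0. With the trend in GC content and length removed, 8 rose and 2 fell (25%, against 21.3% of all genes), and with the replicate number as a block 8 rose and 7 fell (37.5%, against 24.7%). SF3B4 rose by 0.20 (adjusted p = 0.0182) and PRPF3 by 0.19 (adjusted p = 0.0383), while SF3B6 fell by 0.23 (adjusted p = 0.049). Of 35 tested further splicing regulators, 4 rose and 1 fell, a share of 14.3% that is near the 15.2% of all genes, and with the block 4 rose and 4 fell (22.9%, against 24.7%). MBNL3, a muscleblind family member, rose by 0.67 (SE 0.0927, adjusted p = 1.67e-04), from 10.1 and 10.4 CPM in vector replicates 2 and 3 to 17.8 and 14.9 CPM. SRRM2, a large scaffold of nuclear speckles, rose by 0.33 (SE 0.0596, adjusted p = 0.0015), PTBP3 by 0.27 and SON by 0.24. RBM24 fell by 0.46 (SE 0.0882, adjusted p = 0.00265).

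SR proteins are phosphorylated by SRPK and CLK kinases and imported by TNPO3. Of 10 genes for such kinases and this importin, 0 rose and 1 fell (against 6.66% higher and 8.59% lower over all genes), DYRK1A by 0.19 on the log2 scale (adjusted p = 0.0376). With the replicate block 0 rose and 2 fell (20%, against 24.7% of all genes). CLK1 and TNPO3 were at -0.15 and -0.06 and were not called. Among 10 genes of nonsense-mediated decay, which degrades poison exon transcripts, 1 rose and 2 fell (30%, against 15.2% of all genes), and with the replicate block 2 rose and 3 fell (50%, against 24.7%). SMG1 rose by 0.39 (adjusted p = 0.00175), while UPF3A fell by 0.34 (adjusted p = 0.00244) and SMG8 by 0.23 (adjusted p = 0.0224).

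**Figure D4:**
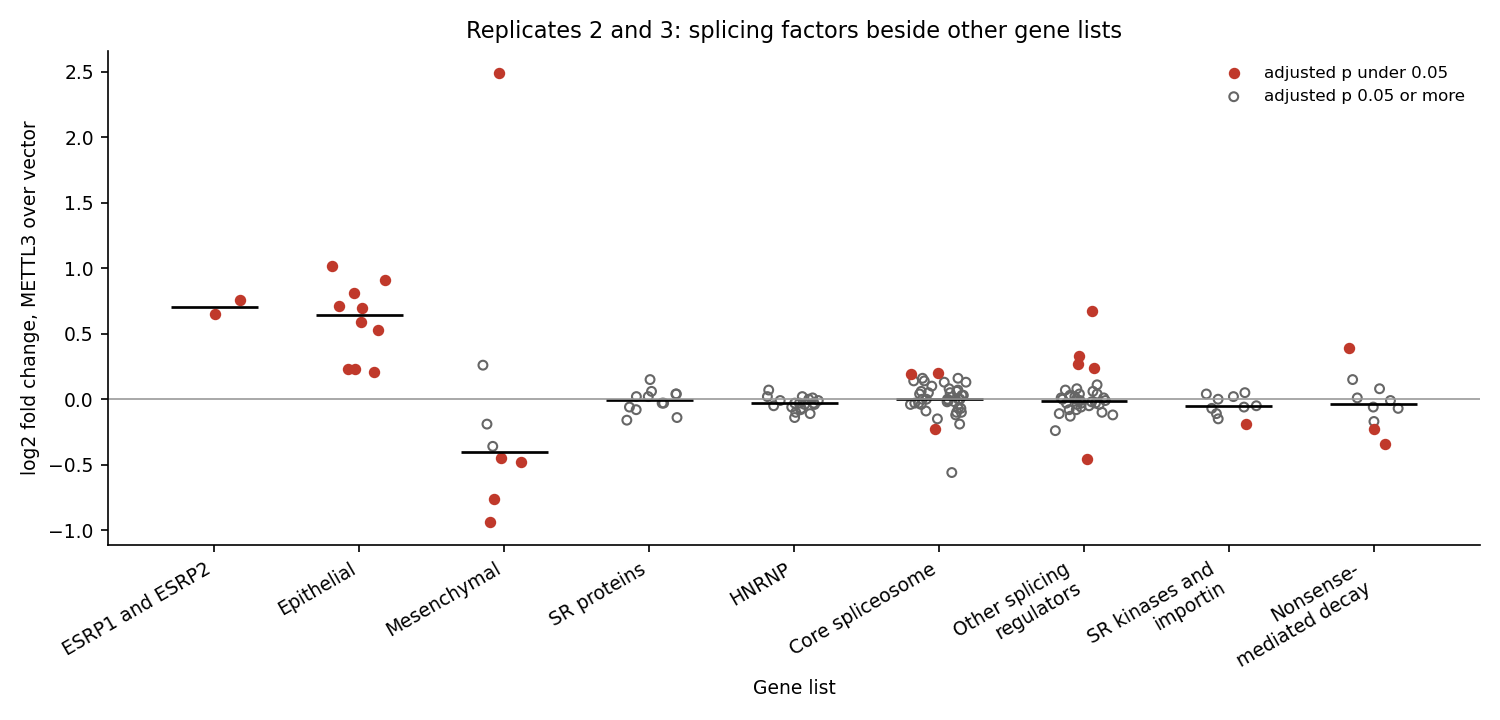
Log2 fold change of METTL3 overexpression over the vector control in replicates 2 and 3 for ESRP1 and ESRP2, the SR and HNRNP members and the comparison lists, 1 point per tested gene, with a line at each list's median and called genes in red. ESRP1 and ESRP2 lie at the height of the epithelial list (median 0.647), while SR and HNRNP genes lie around medians of -0.006 and -0.034.

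The replicate numbers gave a different picture for the families as a whole. In replicate 1, METTL3 overexpression was below its control for 28 of the 37 tested members, with a median log2 difference of -0.229 over the members (-0.001 over all tested genes). The members' medians in replicates 2 and 3 were -0.027 and 0.011. The test of this difference, an interaction in edgeR, called 18 of 37 members (17 lower in replicate 1 and 1 higher), against 30.2% of all tested genes (15.5% lower and 14.7% higher). Called members were 5 of 12 SR genes, 10 of 19 HNRNP genes and 3 of the 6 others. With 1 library per group in replicate 1, the fit assumes that those libraries vary as the others do. With the trend in GC content and length removed, 19 were called, 18 of them lower, against 27.3% of all genes (18% lower and 9.35% higher). DESeq2 called 19, against 26.7%. The members' median GC content was 41.6%, against 48.3% over all tested genes. Without that correction, the median log2 difference in the interaction was -0.222 over the members and 0.001 over all tested genes. It was -0.267 over the 40 core spliceosome genes and -0.113 over the 35 further splicing regulators. Over the SR kinase and importin list it was -0.089, and over the nonsense-mediated decay list 0.158. With the trend in GC content and length removed, it was -0.209 over the members and -0.055 over all tested genes. It was then -0.327 over the core spliceosome genes and -0.245 over the further splicing regulators. The kinase and importin list was then at -0.234, and the nonsense-mediated decay list changed sign to -0.100. The shift was thus not particular to the SR and HNRNP families.

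HNRNPA1, an abundant shuttling protein that favours exon skipping, had the smallest p of all members in this test. It was at 845, 1083 and 1175 CPM with METTL3 overexpression and at 1609, 1231 and 1207 CPM in the controls. Replicate 1 held both the lowest and the highest of the 6 libraries. The METTL3 effect in replicate 1 was lower by a log2 difference of -0.82 (SE 0.0908, adjusted p = 5.53e-05 in edgeR). HNRNPA1 has 74 annotated pseudogene rows, whose counts amounted to 3.01% to 3.58% of its own. Reads shared with such near-identical copies make its counts uncertain, and the same holds for HNRNPA1L3 (-0.91, SE 0.153), itself a copy of HNRNPA1.

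HNRNPH3, a binder of G-rich tracts, was at 142, 180 and 195 CPM with METTL3 overexpression and at 248, 184 and 196 CPM in the controls. Replicates 2 and 3 were close to their controls, and the replicate 1 libraries lay on opposite sides of them. The difference between numbers was -0.78 (SE 0.0994, adjusted p = 1.14e-04). HNRNPR was at 218, 280 and 289 CPM with METTL3 overexpression and at 313, 285 and 284 CPM in the controls. Its difference between numbers was -0.52 (SE 0.0855). It came mostly from METTL3 replicate 1, which lay at -0.39 on the log2 scale from replicates 2 and 3 of its group. Vector replicate 1 of HNRNPR lay at 0.10. HNRNPA0, a single-exon relative of HNRNPA1, was the exception. It was at 336, 343 and 346 CPM with METTL3 overexpression and at 289, 375 and 349 CPM in the controls, and its difference was 0.28 (SE 0.0904, adjusted p = 0.0297). It was 0.19, with an adjusted p of 0.104, once the trend in GC content and length was removed.

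SRSF3, the smallest classical SR protein, was at 395, 373 and 394 CPM with METTL3 overexpression and at 621, 385 and 399 CPM in the controls. Only vector replicate 1 stood apart, and the difference between numbers was -0.62 (SE 0.0888, adjusted p = 2.23e-04). SRSF7, its closest relative, was at 225, 198 and 215 CPM and at 328, 196 and 205 CPM, with a difference of -0.58 (SE 0.0967, adjusted p = 6.08e-04). SRSF5 was at 325, 263 and 305 CPM and at 463, 300 and 301 CPM, with a difference of -0.43 (SE 0.111, adjusted p = 0.0102). SRSF4 was flat across all libraries, at 115, 122 and 127 CPM with METTL3 overexpression and at 117, 118 and 120 CPM in the controls. Its difference was -0.09 (SE 0.0893, adjusted p = 0.53). The promoter windows printed above are those of SRSF3, which moved in vector replicate 1 alone, the flat SRSF4 and HNRNPA0. HNRNPA0 differed in the opposite direction, and was not called with the trend in GC content and length removed. A relation between promoter motifs and these differences was not tested.

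ESRP1 differed between numbers by -0.58 (SE 0.0886, adjusted p = 3.48e-04), since its METTL3 effect was 0.07 in replicate 1 and 0.63 and 0.67 in replicates 2 and 3. The effect on ESRP2 was 0.54, 0.77 and 0.74, and its difference of -0.22 (SE 0.0949) was not called (adjusted p = 0.106). With the trend in GC content and length removed, that difference was -0.51 with an adjusted p of 4.61e-04. RBFOX2 had effects of 0.31, 0.19 and 0.23 and no called difference (0.10, SE 0.103, adjusted p = 0.521). TRA2A and TRA2B differed by -0.66 (SE 0.102, adjusted p = 3.73e-04) and -0.38 (SE 0.0846, adjusted p = 0.00447). In replicates 2 and 3 the TRA2A effects were 0.14 and 0.16, opposite in sign to -0.51 in replicate 1.

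**Figure D5:**
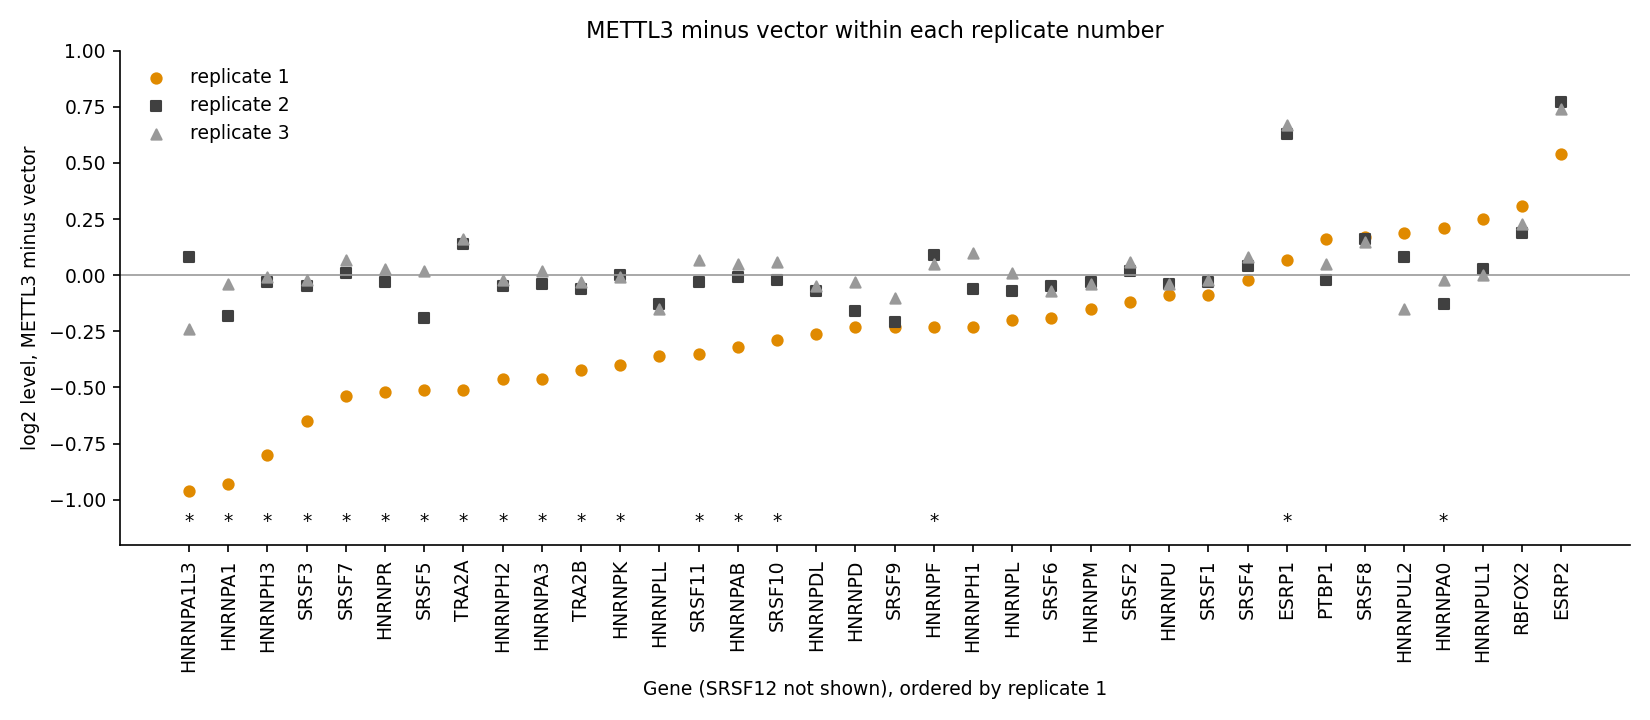
Log2 level of METTL3 overexpression minus the vector control of the same replicate number (0.5 CPM added before the logarithm), for each tested member but SRSF12, ordered by replicate 1, with asterisks where edgeR called the difference between replicate 1 and replicates 2 and 3. Replicates 2 and 3 stay near 0 for most genes while replicate 1 reaches -0.96 for HNRNPA1L3 and -0.93 for HNRNPA1.

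Setting replicate 1 of both groups against replicates 2 and 3 called 0 members in edgeR, against 9.06% of all genes (4.25% higher and 4.81% lower). At an unadjusted p under 0.05, 5 members were higher and 6 lower, against 27.5% of all genes, and DESeq2 called 6, of them 2 higher and 4 lower, against 16.2% (6.47% higher and 9.74% lower). Each replicate 1 library was then set against replicates 2 and 3 of its own group, with the spread estimated from both groups. Vector replicate 1 was called higher in 15 members and lower in 9, against 40.2% of all genes (18% higher and 22.1% lower). SR genes were on its higher side, with 6 of 12 higher (SRSF3, SRSF5, SRSF6, SRSF7, SRSF10 and SRSF11) and 0 lower. HNRNP genes split into 5 higher and 8 lower, and ESRP1, ESRP2, TRA2A and TRA2B were higher while PTBP1 was lower. The largest log2 differences in vector replicate 1 were those of ESRP1 (0.70, SE 0.0617), SRSF7 (0.67, SE 0.0665) and SRSF3 (0.62, SE 0.0609).

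METTL3 replicate 1 was called higher in 1 member, SRSF6, and lower in 14, against 26.1% of all genes (11.3% higher and 14.8% lower). Of the 14, 13 were HNRNP genes out of 19 tested, and the last was PTBP1. HNRNPA1 (-0.42, SE 0.0654), HNRNPA1L3 (-0.41, SE 0.112), HNRNPH3 (-0.40, SE 0.0715), HNRNPD and HNRNPR (-0.39 each) were lowest relative to replicates 2 and 3. Summed over each family, SR genes were at 2175, 2013 and 2195 CPM with METTL3 overexpression and at 2795, 2076 and 2163 CPM in the controls. The SR sum was high in vector replicate 1 alone. HNRNP genes summed to 6531, 7722 and 7984 CPM with METTL3 overexpression and to 8345, 8053 and 8012 CPM in the controls. The HNRNP sum was low in METTL3 replicate 1 alone. Since each of these values comes from a single library, library and condition cannot be told apart in them.

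Overlap with other genes limits some members further. For 10 of the 39 members over 10% of the exonic bases are shared with another gene, on the opposite strand for 4 of them. The share was 54.8% for HNRNPA3, which lies opposite NFE2L2, 44.3% for HNRNPUL2, 35.1% for SRSF1 and 27.7% for SRSF2. None of these 4 was called in replicates 2 and 3, and HNRNPA3 was called in the comparison of numbers (-0.45, SE 0.0844, adjusted p = 0.00144).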

How the data were processed

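The libraries were 3 of METTL3-overexpressing and 3 of vector control OVCAR5 cells. The authors used HISAT2 on hg38, and the raw counts per gene that they deposited were made with Subread (featureCounts). The submitters' processing notes also name fastp. Versions, annotation release, strand and the handling of multi-mapping reads are not given in the sources used here, and the labels and the study's methods differ on the kit and on single or paired reads. Of the counts from 1 to 20, 68.9% were even, and counts divided by 2 were therefore tried as an alternative.

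Identifiers without version were named by GENCODE release 44 (60463 of 60649 rows). The members and gene lists were chosen with earlier results of these data known. Genes passing filterByExpr were scaled by TMM and tested in edgeR 4.0.16 under R 4.3.3 (glmQLFit, robust, then glmQLFTest). Adjusted p-values are Benjamini-Hochberg values over all tested genes, called below 0.05. Each SE was derived from the fold change and its F statistic. Exact permutation tests were two-sided over the 10 distinct splits of 6 libraries. DESeq2 1.42.0 was an alternative, beside other scalings and filters, a trend in GC content and length removed from each library, and each replicate left out. The functions were tested on simulated counts.

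By rule, named genes were the 6 added regulators, members of smallest p in each comparison, the 3 highest and lowest per length, members that failed the filter, and the 3 genes of smallest p in each comparison list. Further members were chosen after their values were seen.

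The groups share replicate numbers. Deviations from the group means correlated at 0.334, 0.12 and 0.175 between libraries of number 1, 2 and 3, each above the minimum of 0.1 set for pairing, so the number was also fitted as a block. METTL3 replicate 2 correlated at 0.205 with vector replicate 3, above its 0.12 with vector replicate 2. METTL3 replicate 3 correlated at 0.133 with vector replicate 2. The correlations thus do not single out a pairing within numbers 2 and 3, and the pairing comes from the values alone. One listed marker is not reported here.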

Additional observations from a re-analysis of the deposited data

Results flagged for a closer look

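The METTL3 effect differed between replicate 1 and replicates 2 and 3 for 18 of 37 tested members in edgeR's interaction test, against 30.2% of all tested genes. Among HNRNP genes the differences on the log2 scale were -0.82 for HNRNPA1, -0.91 for HNRNPA1L3, -0.78 for HNRNPH3, -0.52 for HNRNPR, -0.45 for HNRNPA3, -0.43 for HNRNPH2, -0.40 for HNRNPK, -0.34 for HNRNPAB, -0.30 for HNRNPF and 0.28 for HNRNPA0. Among SR genes they were -0.62 for SRSF3, -0.58 for SRSF7, -0.43 for SRSF5, -0.37 for SRSF11 and -0.30 for SRSF10. Among the added regulators they were -0.66 for TRA2A, -0.58 for ESRP1 and -0.38 for TRA2B. Each rests on 1 library per group in replicate 1. The median difference was -0.222 over the members and -0.267 over the core spliceosome genes, so the shift was not particular to the members.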

How the results depend on the processing

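On all 6 libraries, edgeR called 0 members (0% of all genes) and DESeq2 called 1, ESRP2 (against 1.27% of all genes). Keeping every gene regardless of its counts gave 1 (ESRP2). Leaving out 1 replicate gave 0 to 2, with 2 (ESRP1 and ESRP2, against 1.62% of all genes) without vector replicate 1. METTL3 itself ranged from 1.13 to 1.23 with 1 replicate left out and was called without vector replicate 1. In replicates 2 and 3 the 3 calls (against 15.2% of all genes) became 6 with the trend in GC content and length removed (against 21.3%). In the setting of replicate 1 against replicates 2 and 3, DESeq2 and the GC and length correction called 6 each and keeping every gene 7, and leaving out 1 replicate gave 0 to 24 (24 without METTL3 replicate 1, 15 without vector replicate 1). The number of interaction calls rose or fell with 1 library of replicates 2 and 3 left out, and replicate 1 holds 1 library per group in each such fit.

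With the replicate block, 9 members were called in replicates 2 and 3 (against 24.7% of all genes) and 0 on all 6 libraries (against 0%).

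Some named members changed sign. On all 6 libraries TRA2A (-0.10) was at 0.02 with the GC and length trend removed, at 0.03 with that correction and the replicate block, and between -0.19 and 0.14 with 1 replicate left out. PTBP1 (0.06) was at -0.00, at -0.01, and between -0.07 and 0.19, and HNRNPUL1 (0.08) was between -0.04 and 0.18. In replicates 2 and 3, PTBP1 (0.02) was between -0.05 and 0.09. In the interaction, the GC and length correction turned PTBP1 from 0.14 to -0.36, which was called (adjusted p = 0.00144), and RBFOX2 from 0.10 to -0.16. The causes were not tested. The members' median log2 difference of mean CPM (-0.088) ranged from -0.137 to -0.034 with 1 replicate left out and was -0.051 with the GC and length correction, alternatives chosen after seeing the data. Depth limits SRSF12, at 17 to 35 counts, and the 2 members at 0.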
